A study of Mus musculus with 9 samples.

Results

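The 10 genes described here are the transcription factor Nrf2 (gene Nfe2l2), its inhibitor Keap1 and 8 of their best-known antioxidant targets, Gclc, Gclm, Slc7a11, Txnrd1, Prdx1, Srxn1, Nqo1 and Hmox1. They were chosen by gene symbol, and all 10 were found among the 49671 gene rows of a read count table from mouse skin. The libraries came from cells sorted from skin suspensions as CD45-, lacking the surface protein of white blood cells, and CD49f+, carrying the integrin alpha-6 chain of basal keratinocytes. There were 4 libraries of Flg genotype ko/ko and 5 of Flg genotype wt/wt, Flg being the gene of filaggrin, which binds keratin filaments in the outer epidermis. The comparison is of the RNA of these cells between the labelled Flg genotypes. The labels give no age, sex, strain, ko allele or treatment. Each library has its own identifier in its title, but no label says that these are separate animals, so p-values measure the spread between these samples, which may be technical.

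Nrf2 is made continuously and destroyed quickly, because Keap1 hands it to the Cul3 ubiquitin ligase. Oxidants and electrophiles modify cysteines of Keap1, Nrf2 then builds up, pairs with a small Maf protein and binds antioxidant response elements, short DNA sequences near its target genes. In mouse skin the pathway is known for protecting keratinocytes from ultraviolet light and reactive oxygen, and lasting Nrf2 activity in keratinocytes is known to thicken the cornified layer. Much of its control acts on the Nrf2 protein, which read counts do not measure.

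Totals ran from 15601859 to 23200440 counts per library, and values below are CPM, counts divided by library size, with library sizes adjusted by TMM, a factor that offsets differences in RNA composition. Flg had 2, 0, 0 and 4 counts in ko/ko replicates 1 to 4 and 0, 0, 6, 2 and 4 counts in wt/wt replicates 1 to 5, too few to check the genotype labels. The label calls the cells epidermal, but Dcn, a matrix proteoglycan of fibroblasts, lay at 12986 to 21870 CPM in ko/ko and 10868 to 20010 CPM in wt/wt, above the basal keratin Krt14 at 890 to 1561 CPM in ko/ko and 858 to 1834 CPM in wt/wt. The antioxidant values below come from RNA with this makeup. In such bulk samples, fewer cells of a type and less RNA per cell cannot be told apart. Mitochondrial genes took 6.30% of counts in ko/ko replicate 1, 1.81% to 2.01% in ko/ko replicates 2 to 4, and 2.77% to 7.55% in wt/wt.

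Promoter sequences of 8 of the 10 genes were found in a RefSeq table of build GRCm38.p6, each from 250 bases before to 50 bases after a transcription start. The core letters of the antioxidant response element, TGACNNNGC, were searched on both strands. At least 1 match stood in the promoters of 5 of these 8 genes (Nfe2l2, Srxn1, Gclm, Prdx1 and Txnrd1), or 62.5%, against 16.8% of 11827 tested genes with a promoter sequence. The related letters TGANTCAGC, which coincide with the core letters where their N is C, stood in 2 of the 8 (Srxn1 and Prdx1), against 1.40% of the tested genes. Such a match is a description of these letters, not a binding site. Given here are promoters of 3 genes named in later results: those of Prdx1 and Txnrd1, whose levels had correlations of opposite sign with that of Gclc across libraries, and that of Nqo1, the member whose genotypes did not overlap. A link between these letters and those results was not tested. Capitals mark TGACNNNGC read on the reverse strand, and Nqo1 has no match in this window.
Prdx1, chr4:116685349-116685648, plus strand: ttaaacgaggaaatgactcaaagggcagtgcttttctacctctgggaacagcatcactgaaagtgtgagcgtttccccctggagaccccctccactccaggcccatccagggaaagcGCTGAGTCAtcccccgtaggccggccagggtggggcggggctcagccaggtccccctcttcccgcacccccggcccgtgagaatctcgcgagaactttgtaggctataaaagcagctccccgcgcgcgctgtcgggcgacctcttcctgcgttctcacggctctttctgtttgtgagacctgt
Txnrd1, chr10:82858956-82859255, plus strand: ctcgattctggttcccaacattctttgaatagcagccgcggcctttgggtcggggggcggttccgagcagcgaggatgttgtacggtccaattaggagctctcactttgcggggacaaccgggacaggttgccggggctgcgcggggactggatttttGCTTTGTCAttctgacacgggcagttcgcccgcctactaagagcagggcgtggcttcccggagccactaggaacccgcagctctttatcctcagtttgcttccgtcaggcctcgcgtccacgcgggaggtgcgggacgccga
Nqo1, chr8:107403156-107403455, minus strand: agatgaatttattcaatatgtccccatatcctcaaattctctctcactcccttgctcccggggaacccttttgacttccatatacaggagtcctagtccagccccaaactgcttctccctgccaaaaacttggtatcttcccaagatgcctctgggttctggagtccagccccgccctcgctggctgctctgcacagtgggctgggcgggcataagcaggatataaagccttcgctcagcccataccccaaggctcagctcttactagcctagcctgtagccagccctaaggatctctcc
Counting the start site as 0, the match begins at position -133 in Prdx1 and at position -92 in Txnrd1, whose window shown is 1 of 3 in the table and the one with a match.

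All 10 genes were expressed enough to be tested. Levels can be compared between genes only per length, so CPM was divided by exon length in kilobases. Prdx1, a peroxide-reducing peroxiredoxin, stood highest at 132 CPM per kilobase over all libraries, above 97.6% of the 18435 genes tested or level with them. Hmox1 followed at 70.0, Nfe2l2 at 59.9, Txnrd1 at 36.1 and Nqo1 at 30.2 CPM per kilobase. Srxn1 lay at 12.4, Gclc at 8.14, Keap1 at 5.82 and Gclm at 2.73 CPM per kilobase. Slc7a11, the light chain of the cystine importer, stood lowest at 0.267 CPM per kilobase, with 61 to 87 counts per library. Neighbours in this order had overlapping ranges over libraries, except Nqo1 above Srxn1, Keap1 above Gclm, and Gclm above Slc7a11. The mRNA of the factor itself was thus well above that of its inhibitor Keap1 in every library: the lowest Nfe2l2 level was 47.5 and the highest Keap1 level 7.50 CPM per kilobase.

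No member differed between genotypes past the threshold of an adjusted p of 0.05 in edgeR's quasi-likelihood test: 0 of 10, where 0.00542% of all genes tested were called. DESeq2 and limma voom with quality weights also called 0 of 10, where they called 3.63% and 9.77% of all genes, shares too small to set 10 genes apart. At an unadjusted p under 0.05 there was 1 member, Nqo1, as lower, where 15.3% of all genes had such a p, 6.42% as lower and 8.86% as higher. Log2 fold changes of ko/ko over wt/wt were positive for 5 members and negative for 5, with a median of 0.02 against -0.03 over all genes. They ran from -0.43 (Nqo1) to 0.51 (Gclc).

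**Figure D1:**
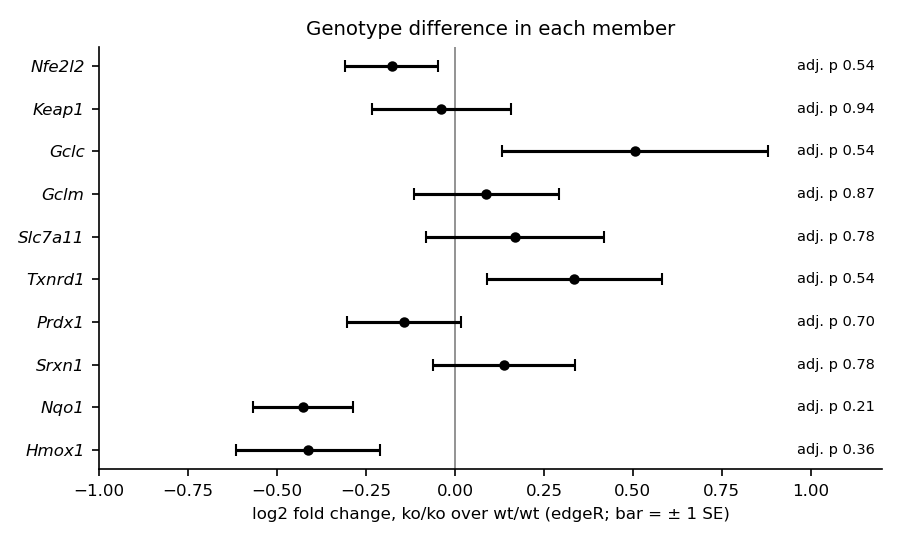
Log2 fold change of ko/ko over wt/wt for each of the 10 genes (horizontal axis, edgeR), with bars of 1 SE and the adjusted p over all genes at the right. Nqo1 and Hmox1 lie lowest, at -0.43 and -0.41, and Gclc highest, at 0.51 with the widest bar.

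Nfe2l2 (ENSMUSG00000015839, mm10 chromosome 2, 75675513 to 75704641, minus strand) encodes Nrf2. It had 180, 206, 219 and 242 CPM in ko/ko replicates 1 to 4, against 233, 235, 240, 262 and 229 CPM in wt/wt replicates 1 to 5. Only ko/ko replicate 4 reached into the wt/wt range, and this was the steadiest of the 10 genes over all libraries, with a coefficient of variation of 10.4%. The means were 212 ± 26.0 CPM in ko/ko (SD, n = 4) and 240 ± 13.0 CPM in wt/wt (SD, n = 5), with a value of -0.18 ± 0.13 (SE) for the log2 fold change (edgeR adjusted p = 0.538), which was -0.11 without ko/ko replicate 1.

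Keap1 (ENSMUSG00000003308, chromosome 9, 21229730 to 21239361, minus strand) encodes the adaptor that presents Nrf2 for destruction. It had 27.0, 24.9, 26.5 and 29.3 CPM in ko/ko replicates 1 to 4, against 18.2, 22.7, 29.5, 32.4 and 35.2 CPM in wt/wt replicates 1 to 5. The wt/wt libraries lay on both sides of the narrow ko/ko range. The log2 fold change was -0.04 (SE 0.20, edgeR adjusted p = 0.943), and its sign depended on the setting. Keap1 shares 510 of its 4693 exon bases with Gm16754 on the opposite strand, which had 93 counts in all libraries together against 5001 for Keap1.

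The glutathione branch consists here of the catalytic (Gclc) and modifier (Gclm) subunits of glutamate-cysteine ligase, which catalyses the rate-limiting step of glutathione synthesis, and of Slc7a11, which brings in its cystine. Gclc (ENSMUSG00000032350, chromosome 9, 77754535 to 77794485, plus strand) had 55.8, 23.0, 40.8 and 27.2 CPM in ko/ko replicates 1 to 4, against 41.6, 39.3, 18.2, 14.8 and 15.2 CPM in wt/wt replicates 1 to 5. It varied most of the 10 genes, 3.77-fold between the highest and the lowest library, with wt/wt replicates 1 and 2 among the ko/ko values and wt/wt replicates 3 to 5 below all of them. Its means were 36.7 ± 14.8 CPM in ko/ko (SD, n = 4) and 25.8 ± 13.4 CPM in wt/wt (SD, n = 5), with a value of 0.51 ± 0.37 (SE) for the log2 fold change (edgeR adjusted p = 0.540). With voom and quality weights the log2 fold change was 0.85 and the adjusted p 0.0535; without ko/ko replicate 1 the edgeR value was 0.23, and 0.12 with a covariate for the reads of Gm10800 and Gm10801. Gm10800, a predicted gene, ranged from 22.0 to 12903 CPM in ko/ko and from 2.94 to 2150 CPM in wt/wt.

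Gclm (ENSMUSG00000028124, chromosome 3, 122245557 to 122270732, plus strand) encodes the modifier subunit. It had 11.5, 22.0, 21.3 and 16.2 CPM in ko/ko replicates 1 to 4, against 15.1, 19.2, 18.2, 16.2 and 15.0 CPM in wt/wt replicates 1 to 5. The library lowest in Gclm, ko/ko replicate 1, was the highest in Gclc. The log2 fold change was 0.09 (SE 0.20, edgeR adjusted p = 0.866), and its sign changed when ko/ko replicate 2 (-0.03) or 3 (-0.01) was left out. Gclm shares 296 exon bases with Gm17494 on the opposite strand and 244 with Gm6061 on its own.

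Slc7a11 (ENSMUSG00000027737, chromosome 3, 49892526 to 50443614, minus strand) had 4.62, 3.44, 3.37 and 4.40 CPM in ko/ko replicates 1 to 4, against 3.10, 4.08, 3.22, 4.07 and 3.12 CPM in wt/wt replicates 1 to 5. The ranges of the genotypes overlapped over most of their width. Its log2 fold change was 0.17 (SE 0.25, edgeR adjusted p = 0.783), or -0.17 once the trend with exon length was removed.

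The thioredoxin branch reduces oxidised protein thiols and peroxides. Txnrd1 (ENSMUSG00000020250, chromosome 10, 82859206 to 82897724, plus strand), the cytosolic thioredoxin reductase, had 163, 126, 131 and 137 CPM in ko/ko replicates 1 to 4, against 146, 149, 118, 70.2 and 68.5 CPM in wt/wt replicates 1 to 5. As with Gclc, wt/wt replicates 1 and 2 lay among the ko/ko libraries and wt/wt replicates 3 to 5 below them all. The means were 139 ± 16.6 CPM in ko/ko (SD, n = 4) and 110 ± 39.4 CPM in wt/wt (SD, n = 5), with a value of 0.34 ± 0.25 (SE) for the log2 fold change (edgeR adjusted p = 0.538). This value was 0.09 with a Gm10800 covariate, 0.21 without wt/wt replicate 4 and 0.20 without wt/wt replicate 5.

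Prdx1 (ENSMUSG00000028691, chromosome 4, 116685544 to 116700822, plus strand) had 336, 423, 345 and 420 CPM in ko/ko replicates 1 to 4, against 335, 381, 491, 484 and 414 CPM in wt/wt replicates 1 to 5. The ko/ko values all lay within the wt/wt range, and the log2 fold change was -0.14 (SE 0.16, edgeR adjusted p = 0.701), or -0.08 without wt/wt replicate 3. Srxn1 (ENSMUSG00000032802, chromosome 2, 152105516 to 152111376, plus strand) encodes sulfiredoxin, which repairs over-oxidised peroxiredoxins. It had 29.1, 34.1, 30.7 and 53.4 CPM in ko/ko replicates 1 to 4, against 36.8, 29.1, 40.6, 30.7 and 30.2 CPM in wt/wt replicates 1 to 5. Apart from ko/ko replicate 4, all libraries lay between 29.1 and 40.6 CPM. Its log2 fold change was 0.14 (SE 0.20, edgeR adjusted p = 0.777), and -0.10 without ko/ko replicate 4.

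Nqo1, an NADPH-using reductase of quinones and the usual marker of Nrf2 activity, had the smallest p of the 10 genes in edgeR's test without passing the adjusted threshold. Nqo1 (ENSMUSG00000003849, chromosome 8, 107388225 to 107403206, minus strand) had 39.4, 34.1, 39.0 and 45.1 CPM in ko/ko replicates 1 to 4, against 60.4, 48.0, 46.1, 52.6 and 58.0 CPM in wt/wt replicates 1 to 5. All 4 ko/ko libraries lay below all 5 wt/wt libraries, by a margin of 45.1 against 46.1 CPM at the nearest. This was the one member of 10 with no overlap, where 6.25% of all genes tested had none, 2.74% with ko/ko below and 3.51% with ko/ko above. The means were 39.4 ± 4.48 CPM in ko/ko (SD, n = 4) and 53.0 ± 6.18 CPM in wt/wt (SD, n = 5), with a value of -0.43 ± 0.14 (SE) for the log2 fold change (edgeR unadjusted p = 0.0109, adjusted p = 0.211). Scaled by library totals alone, the genotypes overlapped, with a highest ko/ko value of 44.4 CPM and a lowest wt/wt value of 42.6 CPM. The log2 fold change stayed between -0.52 and -0.32 over 21 other settings, with adjusted p from 0.0869 (DESeq2) to 0.412 (edgeR without wt/wt replicate 5).

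Hmox1 (ENSMUSG00000005413, chromosome 8, 75093621 to 75100589, plus strand) encodes haem oxygenase 1, which breaks down haem and is also abundant in macrophages that take up red cells. It had 105, 94.7, 108 and 107 CPM in ko/ko replicates 1 to 4, against 198, 107, 165, 109 and 111 CPM in wt/wt replicates 1 to 5. The ko/ko libraries were tightly grouped, and only wt/wt replicates 1 and 3 stood well above them. The means were 104 ± 6.08 CPM in ko/ko (SD, n = 4) and 138 ± 41.6 CPM in wt/wt (SD, n = 5), with a value of -0.41 ± 0.20 (SE) for the log2 fold change (edgeR adjusted p = 0.361), which was -0.24 without wt/wt replicate 1.

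**Figure D2:**
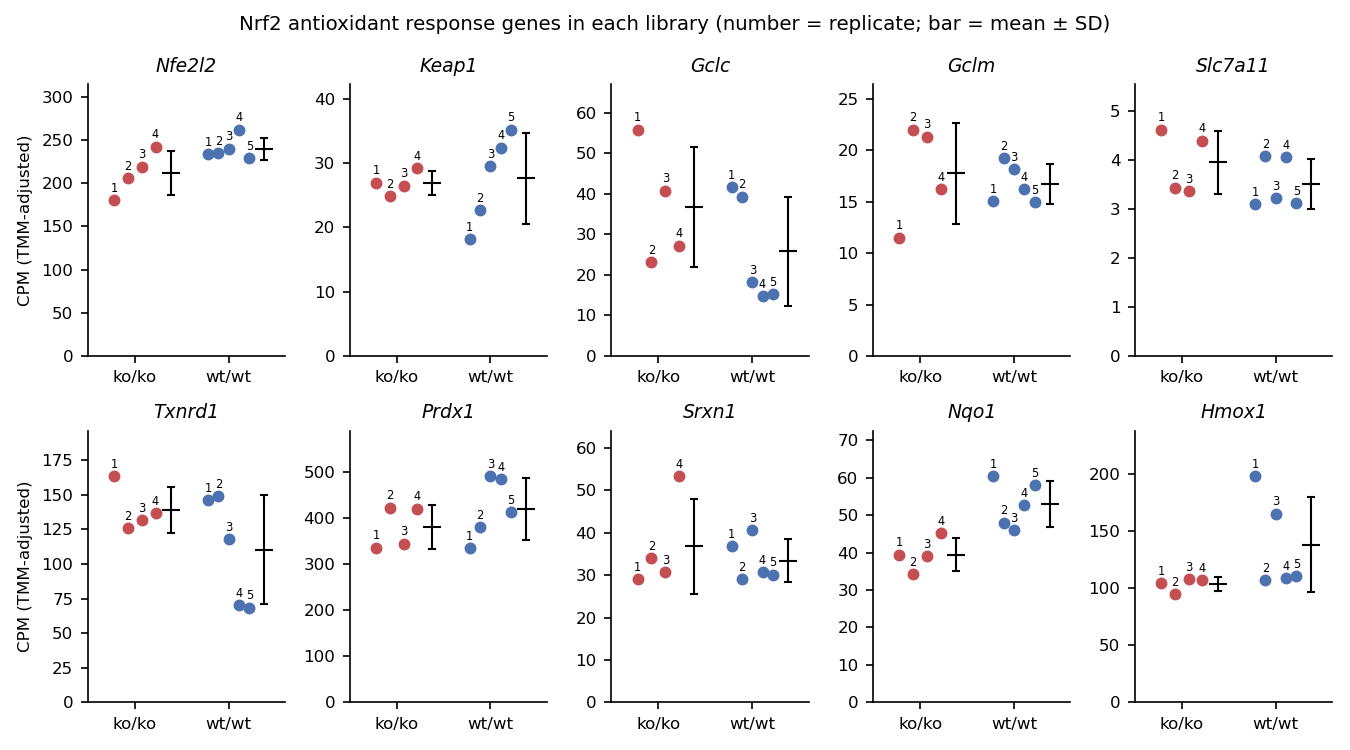
TMM-adjusted CPM (vertical axes from 0) of the 10 genes in each ko/ko library (red, left) and wt/wt library (blue, right), numbered by replicate, with the mean and SD beside each group. Nqo1 is the one gene whose groups do not overlap, and in Gclc and Txnrd1 wt/wt replicates 1 and 2 sit with the ko/ko libraries while wt/wt replicates 3 to 5 sit below.

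Markers of other cell types also differed in level between these libraries, and their part in the values of Nqo1 and Hmox1 was not tested. The 15 myeloid markers took 0.00636% to 0.0489% of counts in ko/ko and 0.00480% to 0.0136% in wt/wt; all 13 tested had positive log2 fold changes, with Tyrobp, C1qc and Cd207 at 0 in at least 1 library. The 6 red cell markers took 0.00231% to 0.0405% in ko/ko and 0.00164% to 0.0121% in wt/wt, all 5 tested with positive values and Slc4a1 at 0 in at least 1 library. The 5 lymphatic endothelial markers took 0.0195% to 0.0258% in ko/ko and 0.0286% to 0.0645% in wt/wt, with no overlap and 5 of 5 negative, none at 0. Basal keratinocyte markers took 0.155% to 0.273% in ko/ko and 0.127% to 0.312% in wt/wt.

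The wider pathway was read from 7 lists of 106 genes, of which 105 were tested. In edgeR's test 0 of 105 were called, 10 had an unadjusted p under 0.05 (9.52%, against 15.3% of all genes), 6 as higher and 4 as lower, and the median log2 fold change was -0.01. Positive log2 fold changes made up 45.7% of the 105, against 47.4% of all genes. DESeq2 called 2 of the 103 for which it gave an adjusted p (1.94%, against 3.63% of all genes), and voom with quality weights called 6 of 105 (5.71%, against 9.77% of all genes).

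The regulators held most of those small p-values, 7 of 16 (43.8%, against 15.3% of all genes), and edgeR called 0 of the 16. The lists were chosen with earlier results of these data known, so this share cannot set the regulators apart. Sqstm1 encodes p62, which takes Keap1 to autophagy and is itself an Nrf2 target. It averaged 1806 ± 204 CPM in ko/ko (SD, n = 4) and 2505 ± 206 CPM in wt/wt (SD, n = 5). All ko/ko libraries, at 1505 to 1938 CPM, lay below all wt/wt libraries, at 2255 to 2799 CPM, although not when scaled by library totals. Sqstm1 was the 1 gene of the 105 tested with ko/ko wholly below, where 2.74% of all genes tested were so. The log2 fold change was -0.47 (SE 0.15, edgeR adjusted p = 0.200), and both DESeq2 (adjusted p = 0.0173) and weighted voom (adjusted p = 0.0436) called it lower. Sqstm1 shares 580 exon bases with Mrnip on the opposite strand, which had 896 counts against 402947.

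Bach1, a repressor that competes with Nrf2 for antioxidant response elements, and above all at Hmox1, had 14.5, 11.6, 13.8 and 10.01 CPM in ko/ko replicates 1 to 4, against 8.75, 7.88, 9.82, 7.68 and 6.52 CPM in wt/wt replicates 1 to 5. Its ko/ko libraries all lay above the wt/wt libraries, also when scaled by library totals. Bach1 was the 1 gene of the 105 tested with ko/ko wholly above, where 3.51% of all genes tested were so. The log2 fold change was 0.62 (SE 0.19, edgeR adjusted p = 0.199, DESeq2 adjusted p = 0.0579, weighted voom adjusted p = 0.0675). Bach2, its relative in lymphocytes, averaged 5.64 ± 2.52 CPM in ko/ko (SD, n = 4) and 2.08 ± 1.02 CPM in wt/wt (SD, n = 5), with a value of 1.43 ± 0.43 (SE) for the log2 fold change (edgeR adjusted p = 0.186), and DESeq2 (adjusted p = 0.0384) and weighted voom (adjusted p = 0.0254) called it higher. Nfe2, a blood cell relative of Nrf2, averaged 7.02 ± 3.68 CPM in ko/ko (SD, n = 4) and 2.78 ± 2.32 CPM in wt/wt (SD, n = 5). Its edgeR adjusted p was 0.298, and weighted voom called it higher (adjusted p = 0.0171). In wt/wt replicates 3 to 5, Nfe2 had 1.76, 1.58 and 0.689 CPM and Bach2 1.76, 1.73 and 0.872 CPM. These were the lowest values of each gene, and Gclc and Txnrd1 were also lowest in these libraries. The lowest values elsewhere were 3.32 CPM for Nfe2 (wt/wt replicate 2) and 2.44 CPM for Bach2 (wt/wt replicate 1). Since both are known from blood cells, the myeloid and red cell shares given above stand beside them as well. The myeloid share was lowest in wt/wt replicate 2, at 0.00480%. The part of these shares in the values of Bach2 and Nfe2 was not tested.

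Of the other regulators, Cul3 (log2 fold change 0.41, SE 0.16), the ligase scaffold that Keap1 serves, and Gsk3b (0.46, SE 0.17), a kinase that marks Nrf2 for another ligase, were positive. Mafk, a small Maf partner of Nrf2, was negative (-0.39, SE 0.17). The edgeR adjusted p of these 3 genes ran from 0.250 to 0.318, and weighted voom called Gsk3b alone of the 3 (adjusted p = 0.0493). The value of Mafk was -0.21 with the Gm10800 covariate and -0.19 without the 3 libraries richest in Gm10800. That of Gsk3b was 0.25 once the trend with exon length was removed. The closest relative of Nrf2, Nfe2l1, which drives proteasome genes, averaged 60.5 ± 14.6 CPM in ko/ko (SD, n = 4) and 75.2 ± 20.3 CPM in wt/wt (SD, n = 5; edgeR adjusted p = 0.548). Its log2 fold change of -0.31 was 0.02 with the Gm10800 covariate. Rbx1, the RING subunit of the Cul3 ligase, averaged 103 ± 12.2 CPM in ko/ko (SD, n = 4) and 104 ± 13.2 CPM in wt/wt (SD, n = 5).

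The other 7 regulators had overlapping genotypes and edgeR adjusted p from 0.405 to 0.977. Maff, another small Maf, averaged 45.8 ± 5.69 CPM in ko/ko (SD, n = 4) and 35.1 ± 9.65 CPM in wt/wt (SD, n = 5), 0.38 on the log2 scale (SE 0.21) and so opposite in sign to Mafk. Mafg, the remaining small Maf of the list, averaged 60.3 ± 11.9 CPM in ko/ko (SD, n = 4) and 65.7 ± 38.3 CPM in wt/wt (SD, n = 5). Its log2 fold change was -0.12 (SE 0.36), but 0.43 with weighted voom and 0.24 without wt/wt replicate 1. Crebbp, a coactivator of Nrf2, had a log2 fold change of 0.25 (SE 0.17), which was -0.07 once the trend with exon length was removed. Dpp3, which binds Keap1, had -0.30 (SE 0.23), and Palb2, another Keap1 partner, had -0.43 (SE 0.44), or 0.20 with weighted voom. Nfe2l3, a further relative of Nrf2, had -0.13 (SE 0.33), or 0.13 without wt/wt replicate 2. Btrc, the other ligase's receptor for Nrf2 marked by Gsk3b, had -0.01 (SE 0.17), with a sign that changed between settings.

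Among 31 glutathione genes 16 had positive and 15 negative log2 fold changes, and 2 had an unadjusted p under 0.05. Gpx1, a cytosolic peroxide-reducing selenoenzyme with the highest CPM of the list (not divided by length), averaged 730 ± 84.8 CPM in ko/ko (SD, n = 4) and 959 ± 147 CPM in wt/wt (SD, n = 5), with a value of -0.39 ± 0.16 (SE) for the log2 fold change (edgeR adjusted p = 0.288). Gpx4, which reduces lipid peroxides, had -0.59 (SE 0.22, edgeR adjusted p = 0.253). DESeq2 called neither, and weighted voom called both as lower (adjusted p = 0.0306 for Gpx1 and 0.0148 for Gpx4). Gpx3, a secreted peroxidase, averaged 506 ± 136 CPM in ko/ko (SD, n = 4) and 490 ± 279 CPM in wt/wt (SD, n = 5). Mgst1, a membrane-bound glutathione transferase, averaged 491 ± 91.3 CPM in ko/ko (SD, n = 4) and 492 ± 139 CPM in wt/wt (SD, n = 5). Counts within the Gsta, Gstm and Gstp families are uncertain, as near-identical copies can share reads.

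Of 15 further thioredoxin and peroxiredoxin genes, 11 were negative, with a median log2 fold change of -0.26 against -0.03 over all genes. Positive values made up 26.7% of this list, against 47.4% of all genes. In edgeR's test 0 of the 15 were called, and the list as a whole was not tested. Its signs are not independent: Txn1, Prdx2, Prdx3 and Prdx4 were each lower in wt/wt replicates 1 and 2 than in wt/wt replicates 3 to 5. In this list 1 gene had an unadjusted p under 0.05. That gene, Sesn3, a sestrin that restrains growth signalling under stress, had a value of 0.32 ± 0.14 (SE) for the log2 fold change (edgeR adjusted p = 0.317), which was -0.05 once the trend with exon length was removed. The highest CPM of the list, not divided by length, belonged to Txnip, an inhibitor of thioredoxin, with 437 ± 28.1 CPM in ko/ko (SD, n = 4) and 604 ± 198 CPM in wt/wt (SD, n = 5), and Prdx6, with 331 ± 49.3 CPM in ko/ko (SD, n = 4) and 353 ± 38.7 CPM in wt/wt (SD, n = 5). Txn1, thioredoxin itself, averaged 185 ± 20.2 CPM in ko/ko (SD, n = 4) and 225 ± 58.4 CPM in wt/wt (SD, n = 5).

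In the remaining 4 lists 0 genes had an unadjusted p under 0.05. They were the NADPH-supplying enzymes (2 positive and 5 negative), haem and iron genes (3 positive and 6 negative), detoxification enzymes (12 positive and 9 negative, Abcc2 not tested) and superoxide and catalase genes (4 positive and 2 negative). Their smallest edgeR adjusted p was 0.445, for Ugt1a6a. Fth1, the heavy chain of the iron store ferritin, averaged 3114 ± 459 CPM in ko/ko (SD, n = 4) and 3534 ± 560 CPM in wt/wt (SD, n = 5). Cat, catalase, averaged 214 ± 24.2 CPM in ko/ko (SD, n = 4) and 214 ± 43.3 CPM in wt/wt (SD, n = 5). Idh1, which makes NADPH in the cytosol, averaged 202 ± 26.2 CPM in ko/ko (SD, n = 4) and 180 ± 35.4 CPM in wt/wt (SD, n = 5). Of the pentose phosphate enzymes, Tkt averaged 121 ± 27.5 CPM in ko/ko (SD, n = 4) and 146 ± 28.3 CPM in wt/wt (SD, n = 5), and Taldo1 95.9 ± 10.3 CPM in ko/ko (SD, n = 4) and 101 ± 23.3 CPM in wt/wt (SD, n = 5).

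In all of these genes, named for the highest CPM of their list, and in those that follow, the genotypes overlapped. Fech, the last enzyme of haem synthesis, averaged 138 ± 47.9 CPM in ko/ko (SD, n = 4) and 155 ± 31.5 CPM in wt/wt (SD, n = 5), and Tfrc, the transferrin receptor, 106 ± 19.5 CPM in ko/ko (SD, n = 4) and 102 ± 20.9 CPM in wt/wt (SD, n = 5). Akr1a1, an aldehyde reductase, averaged 379 ± 84.0 CPM in ko/ko (SD, n = 4) and 434 ± 118 CPM in wt/wt (SD, n = 5). Of the aldehyde dehydrogenases, Aldh3a1 averaged 229 ± 30.2 CPM in ko/ko (SD, n = 4) and 208 ± 43.7 CPM in wt/wt (SD, n = 5), and Aldh2 166 ± 43.0 CPM in ko/ko (SD, n = 4) and 215 ± 61.7 CPM in wt/wt (SD, n = 5). Sod3, the extracellular superoxide dismutase, averaged 779 ± 147 CPM in ko/ko (SD, n = 4) and 770 ± 218 CPM in wt/wt (SD, n = 5), and the mitochondrial Sod2 167 ± 17.5 CPM in ko/ko (SD, n = 4) and 162 ± 20.7 CPM in wt/wt (SD, n = 5). The gene of smallest p in its list was Pgls for NADPH supply (log2 fold change -0.34 ± 0.22 (SE) with adjusted p = 0.483, edgeR), Slc48a1 for haem and iron (-0.32 ± 0.25 (SE) with adjusted p = 0.553, edgeR), Ugt1a6a for detoxification (0.78 ± 0.46 (SE) with adjusted p = 0.445, edgeR) and Sod1 for superoxide (-0.16 ± 0.17 (SE) with adjusted p = 0.693, edgeR).

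**Figure D3:**
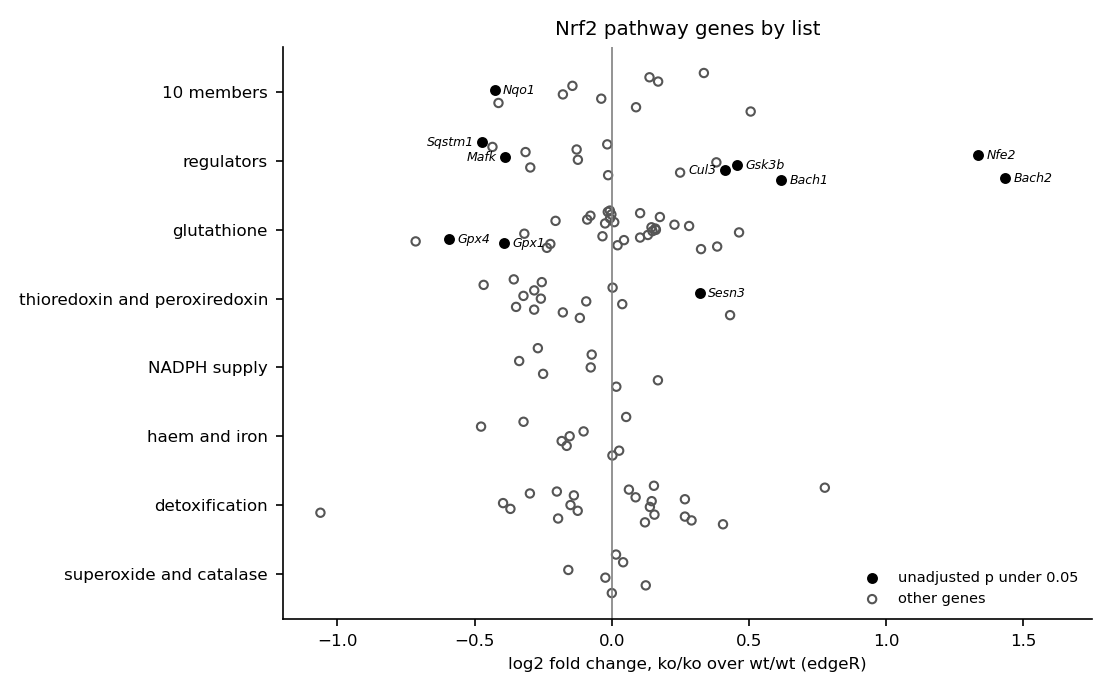
Log2 fold change of ko/ko over wt/wt (horizontal axis, edgeR) for the 10 members and the tested genes of 7 pathway lists, each circle a gene, filled and named where the unadjusted p was under 0.05. Of 11 filled circles, 7 belong to the regulators, with Bach2 and Nfe2 farthest right at 1.43 and 1.33. The lists were chosen with earlier results of these data known.

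The 10 genes did not move as 1 block across libraries. Of 45 pairs, 23 had a positive and 22 a negative Pearson correlation of log2 CPM over the 9 libraries. After adjustment over the 45 pairs, 1 correlation passed in an exact two-sided permutation test: Gclc and Txnrd1, with Pearson r = 0.869 (p = 0.000118, adjusted p = 0.00533) and Spearman rho = 0.900 (p = 0.00203, adjusted p = 0.0913). Without the 2 libraries farthest from the median of Gclc, r was 0.799. It ranged from 0.828 to 0.917 when single libraries were left out, and the call ended without wt/wt replicate 1 (adjusted p = 0.0804) or wt/wt replicate 2 (adjusted p = 0.0636). Gclc and Prdx1 ran in opposite directions (r = -0.889, permutation p = 0.00260, adjusted p = 0.0585; rho = -0.850, p = 0.00607, adjusted p = 0.137), with r = -0.816 without the 2 farthest libraries and a call at adjusted p = 0.0117 without wt/wt replicate 5. Another pair, Gclm and Nqo1, was called without ko/ko replicate 1 (r = -0.913, permutation adjusted p = 0.0396). Over all 9 libraries that pair had r = -0.381 (permutation adjusted p = 0.841). Gclc and its partner subunit Gclm had r = -0.206 (permutation p = 0.599, adjusted p = 0.956). Of the 9 pairs with Nfe2l2, 0 passed (smallest adjusted p = 0.434, permutation test of Pearson r). The 5 tested genes most like Nfe2l2 by Spearman rho over 9 libraries were Luzp2 (0.950), Gm18671 (0.933), Pdcd1 (0.917), Fhl2 (0.900) and Spidr (0.900), of 7 genes at 0.900 or above, as a description only.

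The pattern shared by Gclc and Txnrd1 also followed the number in the library titles. The labels do not say what this number stands for, and this comparison was chosen after the values had been seen. In the order of that number, wt/wt replicates 1 and 2 come lowest, the 4 ko/ko libraries next and wt/wt replicates 3 to 5 highest. Over the 9 libraries, 3 of 10 members correlated with its rank after adjustment over 10 (exact two-sided permutation test). Keap1 had r = 0.938 (p = 8.27e-05, adjusted p = 0.000827) and rho = 0.950 (adjusted p = 0.00353), and 0.919 without the 2 libraries farthest from the median rank. Txnrd1 had r = -0.840 (permutation p = 0.00189, adjusted p = 0.00945) and rho = -0.867 (adjusted p = 0.0225), and -0.797 without those 2 libraries. Gclc had r = -0.848 (permutation p = 0.00631, adjusted p = 0.0210) and rho = -0.833 (adjusted p = 0.0276), and -0.811 without them. Its call ended, leaving 2 members, without ko/ko replicate 4 or without wt/wt replicate 3, 4 or 5. Rank correlations of such size were common: 12.4% of all tested genes had an absolute rho of at least 0.8, 10.97% one as large as that of Gclc, 7.72% as that of Txnrd1 and 1.15% as that of Keap1.

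Other measures differed between libraries of low and high title number, and their part in these correlations was not tested. Malat1, a long RNA kept in the nucleus, had 7129, 1948, 6313 and 1969 CPM in ko/ko replicates 1 to 4, against 10803, 7614, 2882, 2259 and 1619 CPM in wt/wt replicates 1 to 5. Fibroblast markers took 3.90% to 5.98% of counts in ko/ko, 3.31% and 2.81% in wt/wt replicates 1 and 2, and 5.02% to 5.70% in wt/wt replicates 3 to 5. Schwann cell markers took 0.0129% to 0.0317% in ko/ko, 0.00691% and 0.00702% in wt/wt replicates 1 and 2, and 0.0339% to 0.0382% in wt/wt replicates 3 to 5. Cd68, a lysosomal marker of macrophages, had 54.5, 17.6, 20.7 and 18.9 CPM in ko/ko replicates 1 to 4, against 34.0, 22.5, 9.03, 8.95 and 8.49 CPM in wt/wt replicates 1 to 5, highest in ko/ko replicate 1 and lowest in wt/wt replicates 3 to 5, as Gclc was. Lyz2, another marker of the myeloid list, did not follow this order. It had 76.5, 107, 61.1 and 31.6 CPM in ko/ko replicates 1 to 4, against 35.4, 14.1, 81.2, 81.0 and 47.8 CPM in wt/wt replicates 1 to 5. The summed share of the myeloid markers was lowest in wt/wt replicate 2, at 0.00480%. With the rank of the title number as a covariate, edgeR called 448 of 18435 genes (2.43%) and 0 of 10 members. The ko/ko libraries filled ranks 3 to 6, with no wt/wt library among them. A covariate linear in rank removes only a straight trend, so genotype and this block of titles cannot be told apart. In that fit Nqo1 had a value of -0.43 ± 0.13 (SE) for the log2 fold change (adjusted p = 0.103), Hmox1 -0.44 (SE 0.18, adjusted p = 0.200) and Gclc 0.45 (SE 0.20, adjusted p = 0.243). Of the wider genes, Bach2 had 1.29 (SE 0.31, adjusted p = 0.0578) and Nfe2 1.33 (SE 0.32, adjusted p = 0.0539) in the same edgeR fit.

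**Figure D4:**
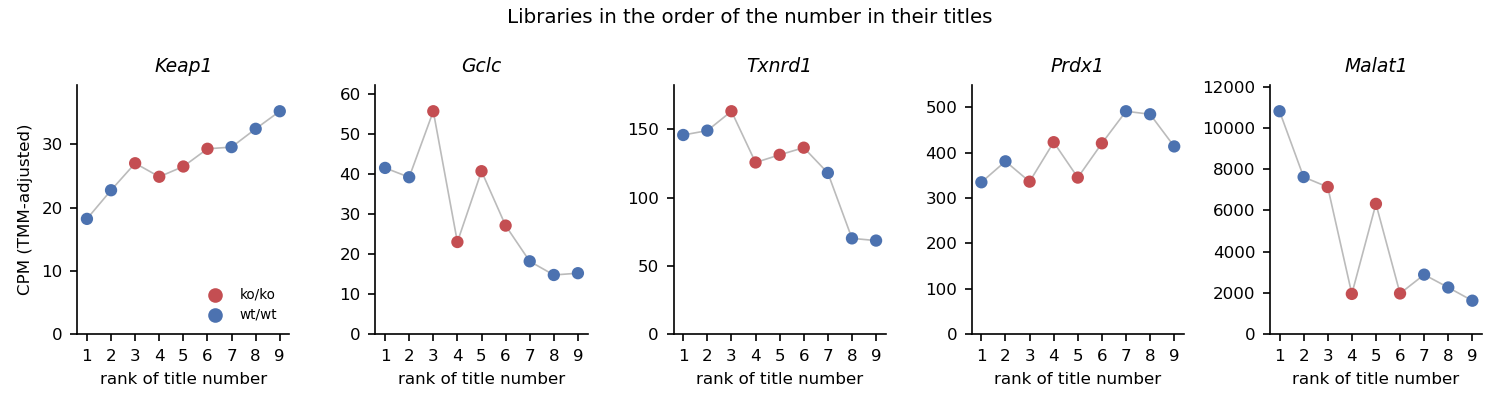
TMM-adjusted CPM (vertical axes from 0) of Keap1, Gclc, Txnrd1, Prdx1 and Malat1 in the 9 libraries, ordered by the rank of the number in their titles (horizontal axis), with ko/ko in red and wt/wt in blue. Keap1 runs between 18.2 and 35.2 CPM upwards along this order, while Txnrd1 and Gclc end lowest in wt/wt replicates 4 and 5.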

How the data were processed

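Polyadenylated RNA of sorted CD45- CD49f+ mouse skin cells was amplified by the SMARTseq2 method and sequenced, per the labels' protocols. The authors deposited raw read counts per gene, 1 column per library, made with GSNAP, featureCounts 1.6.2 and the mm10 genome, per the submitters' processing notes; the table's name gives Ensembl release 87. The authors also deposited the exon length of each gene. How strand, multi-mapping and duplicates were handled is not stated, so reads of overlapping, antisense and near-identical genes cannot be told apart. Of 49763 rows, 92 spike-in rows were left out.

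The labels give the genotype. Replicates are numbered by accession, so a number pairs no libraries. The main test was edgeR 4.0.16 (R 4.3.3): filterByExpr, TMM, glmQLFit with robust=TRUE, two-sided quasi-likelihood F test, Benjamini-Hochberg over 18435 genes, threshold 0.05; SE was obtained as the size of the log2 value divided by the root of F. It was tested on simulated data. Alternatives were RLE factors or library totals, no or a stricter filter (1 CPM in 4 libraries), DESeq2 1.42.0, voom with quality weights (limma 3.58.1), robust=FALSE, 1 surrogate variable (sva 3.50.0), the loess trend on exon length removed (span 0.3), a covariate of Gm10800 and Gm10801 reads, removal of the 3 libraries richest in them, and each library left out; a covariate of title number was added after seeing the data. Correlations used log2 CPM with a prior of 0.5 counts. 1 count equals 0.0431 to 0.0641 CPM.

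Members and lists were chosen with earlier results of these data known. The text names the 10 members; the regulators; and of each other list any called gene, the 3 with the highest CPM and the gene of smallest p. Genes named outside this rule were chosen after their values were seen.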

Additional observations from a re-analysis of the deposited data

Results flagged for a closer look

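The 10 genes and 11 shares of counts were each searched in both genotypes for 1 library far from the rest. In 42 such searches 2 were found, and about 2.1 arise by chance (1 in 20). Neither was a member. Mitochondrial genes took 6.30% of counts in ko/ko replicate 1, far above the other ko/ko libraries, and basal keratinocyte markers took 0.312% in wt/wt replicate 2, far above the other wt/wt libraries. Without ko/ko replicate 1 the log2 fold change was -0.43 for Nqo1, -0.42 for Hmox1 and 0.23 for Gclc. Without wt/wt replicate 2 these were -0.46, -0.49 and 0.71.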

How the results depend on the processing

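The count of members past the threshold was 0 in all 21 other settings, and that of wider pathway genes was 0 in 19 of them. The exceptions were DESeq2, with 2 wider genes (Bach2 higher, Sqstm1 lower), and weighted voom, with 6 (Bach2, Nfe2 and Gsk3b higher, Sqstm1, Gpx1 and Gpx4 lower). Nfe2l2, Prdx1, Nqo1 and Hmox1 stayed negative, and Gclc and Txnrd1 positive, in all 21. Library totals moved the median log2 fold change of all genes to 0.08, against -0.03 with TMM, no filter moved it to 0.14 and removal of the length trend to -0.11. Keap1 turned positive with library totals (0.0877), a surrogate variable (0.125), the Gm10800 covariate (0.187) and the title number covariate (0.0901). Removal of the length trend turned Gclm (-0.0192), Slc7a11 (-0.169) and Sesn3 (-0.0483) negative. Without the 3 libraries richest in Gm10800, Slc7a11 was -0.0896 and Srxn1 -0.0129, and Sod1 was 0.0485 with the Gm10800 covariate. Over fits that left out 1 library, values ran from -0.152 to 0.0643 for Keap1, -0.0324 to 0.247 for Gclm and -0.100 to 0.233 for Srxn1. Of the regulators, library totals turned Rbx1 (0.0947) and Btrc (0.0919) positive, a surrogate variable Rbx1 (0.0518) and Btrc (0.0653), the Gm10800 covariate Rbx1 (0.0846), Btrc (0.0972) and Nfe2l1 (0.0155), and the title number covariate Rbx1 (0.0208) and Btrc (0.0240). Without the Gm10800-rich libraries Mafg was 0.128 and Btrc 0.0725, with weighted voom Mafg was 0.425 and Palb2 0.197, and Crebbp was -0.0656 without the length trend. With 1 library left out, Nfe2l3 ran from -0.356 to 0.134, Mafg from -0.281 to 0.243, Rbx1 from -0.0786 to 0.0573 and Btrc from -0.127 to 0.0637. The cause of these turns was not tested. The number of correlated pairs was 1 under each scaling and prior tried and ran from 0 to 2 over the libraries left out; the number of members following title number was 3 under each scaling and prior, and 2 to 3 over the libraries left out, where Gclc lost its call without ko/ko replicate 4 or wt/wt replicate 3, 4 or 5. Over the whole table, edgeR called 1 gene, against 630 by DESeq2, 1802 by weighted voom, 448 with the title number covariate, 231 with a surrogate variable, 28 with no filter, 7 without the Gm10800-rich libraries, 4 with library totals, 3 with the Gm10800 covariate, 0 with the length trend removed, and 0 to 12 with 1 library left out, the 12 without ko/ko replicate 4. No paired analysis was possible because the labels give the genotypes no shared replicate numbers. Slc7a11, with 61 to 87 counts per library, is the member most limited by depth.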
